A study of Homo sapiens with 16 samples.

Results

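A total of 699 regions of changed histone H3 lysine 27 acetylation (H3K27ac) at promoters of non-coding genes only were described, out of 7130 regions listed as changed in LX-2 cells. A region was a member when any of its bases lay within 2500 bp of the 5′ end of a gene annotated in GENCODE and none lay within 2500 bp of the 5′ end of a protein-coding gene. LX-2 is an established line of human hepatic stellate cells that behave as myofibroblasts and, being a single line, stands for 1 genetic background. Cells received vehicle (DMSO, the control) or 50 µM OSMI-1 for 24 h, and OSMI-1, an inhibitor of the O-GlcNAc transferase OGT, is called OGTi here. H3K27ac was measured by chromatin immunoprecipitation and sequencing in 4 biological replicates of each arm, and the other samples of the 16 in the series were input DNA and column purified chromatin. The members were 352 regions on the list of H3K27ac loss under OGTi (lost regions) and 347 regions on the list of gain (gained regions), so that lost regions made up 50.4% of the members next to 49.2% of all listed regions. The lists hold positions in hg38 and no values, so that neither the H3K27ac level of a member in each sample nor the size of its change can be given.

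H3K27ac lies on nucleosomes that flank active promoters and enhancers. Genes that encode no protein include long non-coding RNA (lncRNA) genes, microRNA genes, pseudogenes and genes of other small RNAs. Many lncRNA genes are read from the strand opposite to a protein-coding gene and carry the suffix -AS, and others lie between genes and are named LINC. MicroRNAs are cut from hairpins in longer primary transcripts and repress messenger RNAs through the seed, bases 2 to 8 of the mature strand. The annotated 5′ end of a microRNA gene is the start of its hairpin and not the start of the primary transcript, so that a region near it may lie far from the promoter in use. In the same way, a region near the 5′ end of a silent lncRNA gene or pseudogene can be an enhancer, and the annotation alone does not tell these cases apart.

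The following mature microRNAs are shown because their hairpins lay within 2500 bp of members and because their genes were either on a list of microRNAs studied in fibrosis and stellate cells or shared a seed with such a gene. The exception is miR-137, shown as the microRNA of a gained CpG-rich region. The seed is in capitals, and sequences and coordinates are those of RefSeq on GRCh38.p14.
hsa-miR-23a-3p, lost, chr19:13836595-13836615, minus strand: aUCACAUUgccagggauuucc
hsa-miR-27a-3p, lost, chr19:13836447-13836467, minus strand: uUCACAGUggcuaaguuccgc
hsa-miR-24-3p, lost, chr19:13836289-13836310, minus strand: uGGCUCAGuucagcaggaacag
hsa-miR-181a-5p, lost, chr9:124692480-124692502, plus strand: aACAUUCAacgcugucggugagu
hsa-miR-181b-5p, lost, chr9:124693725-124693747, plus strand: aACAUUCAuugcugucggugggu
hsa-miR-193a-3p, lost, chr17:31560050-31560071, plus strand: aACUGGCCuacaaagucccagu
hsa-miR-125b-5p, gained, chr11:122099809-122099830, minus strand: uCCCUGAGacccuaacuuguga
hsa-miR-199a-3p, gained, chr19:10817429-10817450, minus strand: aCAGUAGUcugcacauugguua
hsa-miR-3129-5p, gained, chr2:189133082-189133103, minus strand: gCAGUAGUguagagauugguuu
hsa-miR-137-3p, gained, chr1:98046091-98046113, minus strand: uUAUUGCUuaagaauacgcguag
The miR-181a-5p and miR-181b-5p sequences, both encoded next to lost regions, had the seed ACAUUCA in common. The sequences of miR-199a-3p and miR-3129-5p, encoded on different chromosomes next to gained regions, had the seed CAGUAGU in common.

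Windows around matches to the TEAD consensus in lost members are shown because this was the motif that passed the test with a larger share of lost than of gained members, although not without the members near a protein-coding transcript start. TEAD factors bind DNA and recruit the cofactors YAP1 and TAZ. The consensus was ACATTCCA, ACATTCCT, GCATTCCA or GCATTCCT on either strand, and the match is in capitals with 20 bases of hg38 on each side.
WWTR1-AS1, lost, chr3:149658265-149658312, plus strand: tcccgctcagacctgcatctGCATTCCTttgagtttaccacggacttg
WWTR1-AS1, lost, chr3:149658851-149658898, plus strand: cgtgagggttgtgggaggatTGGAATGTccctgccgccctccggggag
THY1-AS1, lost, chr11:119417854-119417901, plus strand: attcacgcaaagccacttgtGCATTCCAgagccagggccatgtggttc
MYADM-AS1, lost, chr19:53868768-53868815, plus strand: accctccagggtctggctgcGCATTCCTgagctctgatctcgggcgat
LINC02104, lost, chr5:39519909-39519956, plus strand: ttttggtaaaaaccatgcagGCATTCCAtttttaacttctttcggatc
MIR181B2, lost, chr9:124697518-124697565, plus strand: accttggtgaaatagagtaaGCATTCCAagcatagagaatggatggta
One match lay 77 bp from the 5′ end of THY1-AS1, and the other matches shown lay farther from the 5′ end they are named for.

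Matches in gained members are shown in the same way for 2 motifs found in a larger share of gained members. The first 3 windows hold TGATGCAA, the composite element bound by ATF4 together with C/EBP factors, and the last 2 hold CCGGAAGT, bound by ETS factors at many housekeeping promoters. All of them are shown on the plus strand, so that a match on the minus strand reads TTGCATCA or ACTTCCGG.
LURAP1L-AS1, gained, chr9:12814401-12814448, plus strand: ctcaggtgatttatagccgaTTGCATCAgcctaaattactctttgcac
HIF1A-AS3, gained, chr14:61752668-61752715, plus strand: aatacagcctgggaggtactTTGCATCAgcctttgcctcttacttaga
NR2F2-AS1, gained, chr15:96329806-96329853, plus strand: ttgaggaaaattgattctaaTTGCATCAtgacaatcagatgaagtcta
TANK-AS1, gained, chr2:161160392-161160439, plus strand: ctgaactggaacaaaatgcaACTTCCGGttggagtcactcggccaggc
TMEM44-AS1, gained, chr3:194583978-194584025, plus strand: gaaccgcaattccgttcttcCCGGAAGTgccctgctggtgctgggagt
The match of LURAP1L-AS1 lay 44 bp from the annotated 5′ end, and that of TMEM44-AS1 lay 7 bp from it. The matches of TANK-AS1, HIF1A-AS3 and NR2F2-AS1 lay farther away, at 188 bp, 1525 bp and 2465 bp.

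The promoters of NORAD and LURAP1L-AS1 are shown whole, as the 250 bases before and 50 bases after the start that RefSeq gives them, because each lay wholly inside a gained region and held one of these elements. Capitals mark matches to TEAD, ATF4-C/EBP, ETS, NRF1, SRF, CRE and AP-1 motifs, and other motifs searched are not marked.
NORAD, gained, chr20:36050911-36051210, minus strand: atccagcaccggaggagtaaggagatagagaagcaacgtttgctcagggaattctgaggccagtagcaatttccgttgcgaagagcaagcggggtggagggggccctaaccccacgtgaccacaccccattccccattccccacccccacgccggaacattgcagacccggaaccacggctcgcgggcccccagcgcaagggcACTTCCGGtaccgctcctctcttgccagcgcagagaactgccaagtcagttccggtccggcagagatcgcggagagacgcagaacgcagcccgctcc
LURAP1L-AS1, gained, chr9:12814340-12814639, minus strand: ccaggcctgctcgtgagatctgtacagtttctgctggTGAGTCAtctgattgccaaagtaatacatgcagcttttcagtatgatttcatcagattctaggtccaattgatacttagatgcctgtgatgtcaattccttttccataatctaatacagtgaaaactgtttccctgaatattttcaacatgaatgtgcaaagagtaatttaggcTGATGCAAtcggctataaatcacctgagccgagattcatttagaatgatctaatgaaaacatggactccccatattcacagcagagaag
The NORAD promoter held 23 CpG dinucleotides and an ETS match. The LURAP1L-AS1 promoter held 3 CpG dinucleotides, an ATF4-C/EBP match and an AP-1 match.

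Loss and gain of H3K27ac were nearly balanced at promoters of non-coding genes only. The 50.4% of members that were lost had a Wilson 95% interval from 46.7% to 54.0%. At promoters of protein-coding genes the share was 26.2% (398 of 1520), and the odds of loss were 2.86 times higher for members (95% interval of the odds ratio 2.37 to 3.45, adjusted p = 5.79e-28 in Fisher's exact test). In regions farther than 2500 bp from any annotated 5′ end, called TSS-distal, 56.1% were lost (2757 of 4911). The odds of loss were lower in members than in these regions (odds ratio 0.793, 95% interval 0.676 to 0.929, exact adjusted p = 0.0044), but not with 1 region per locus (0.888, adjusted p = 0.199). Changed regions of one direction often abut, and a locus was a series of members, or of regions of another class, in one direction with consecutive centres within 50 kb. Under this definition the members fell into 287 lost and 276 gained loci.

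**Figure D1:**
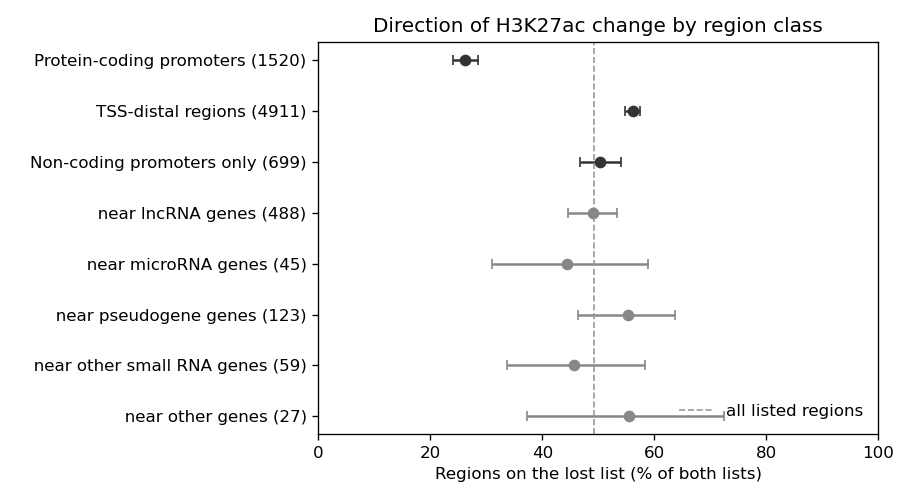
Percentage of regions on the lost list (x axis) for protein-coding promoters, TSS-distal regions, the 699 members and the members near each type of non-coding gene (y axis, number of regions in brackets). Points are shares, bars are Wilson 95% intervals and the dashed line is the 49.2% of all listed regions. The members sit at 50.4%, between protein-coding promoters at 26.2% and TSS-distal regions at 56.1%, and the intervals of all 5 gene types overlap each other.

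Neither direction prevailed at any type of non-coding gene. Among lost members, 239 lay near an lncRNA gene (67.9%), as did 249 of the gained members (71.8%). MicroRNA genes were near 20 lost and 25 gained members (5.68% and 7.2%), and the odds ratio of 0.776 had a 95% interval from 0.423 to 1.43. Pseudogenes were near 68 lost and 55 gained members (19.3% and 15.9%, odds ratio 1.27, 95% interval 0.86 to 1.88). Other small RNA genes, such as those of small nuclear and Y RNAs, were near 27 lost and 32 gained members, and the remaining gene types were near 15 and 12. None of the 5 types passed Fisher's exact test, with unadjusted p from 0.235 upwards, and the intervals leave room for odds up to 1.88 times higher in lost members for pseudogenes. With a window of 1000 bp, the odds ratio for lncRNA genes was 0.58 (exact p = 0.0145, adjusted p = 0.0726). For pseudogenes it was 1.72 in that window (exact p = 0.0487, adjusted p = 0.122). No type passed after adjustment there either. Only 40 regions lay near genes of more than 1 type.

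**Figure D2:**
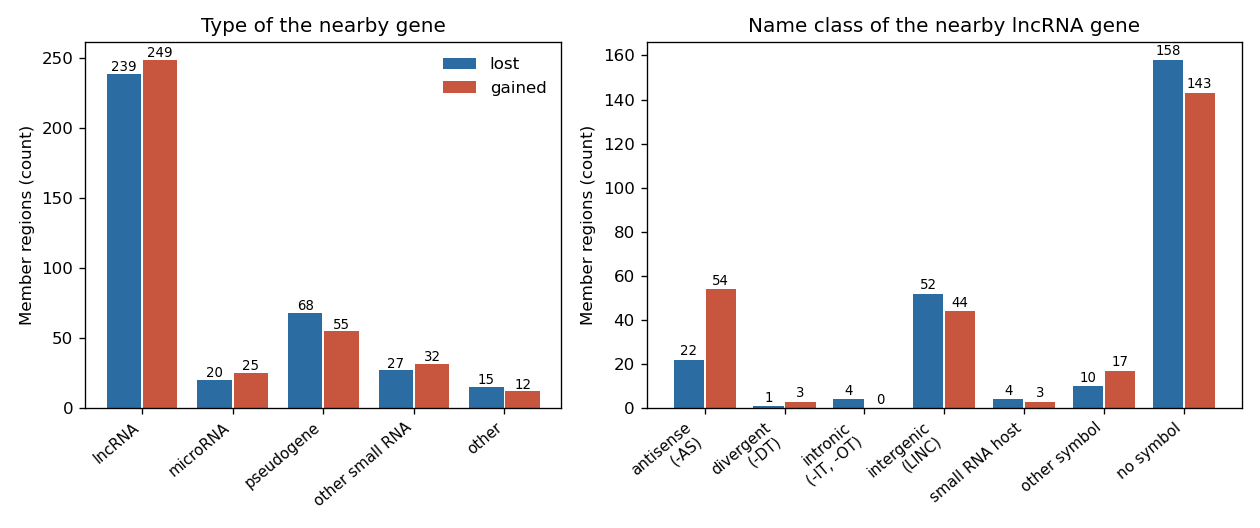
Number of lost (blue) and gained (red) members (y axis) near each type of non-coding gene (left) and near lncRNA genes of each name class (right), with the count above each bar. The bars are of similar height for every gene type, whereas antisense lncRNA genes have 22 lost and 54 gained regions.

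The members lay near 706 non-coding genes, of which 354 had lost regions only and 352 had gained regions only. No gene had members of both directions within 2500 bp of its 5′ end. Most loci held a single member region (231 of 287 lost and 231 of 276 gained), and a gene near a single region can have only a single direction. The share among protein-coding genes was not counted. Of 458 lncRNA genes, 226 had lost and 232 had gained regions. The 42 microRNA genes were split evenly, with 21 in each direction, and the 119 pseudogenes were split into 63 and 56.

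Antisense lncRNA genes were the exception among the name classes of lncRNA genes. Genes with the suffix -AS were near 22 lost members (6.25%) and 54 gained members (15.6%), an odds ratio of 0.362 (95% interval 0.215 to 0.609, adjusted p = 0.000589 in Fisher's exact test over the 7 classes). LINC genes, intergenic by name, were near 52 lost and 44 gained members (odds ratio 1.19, 95% interval 0.775 to 1.84), and lncRNA genes without a symbol were near 158 and 143 (1.16, 95% interval 0.861 to 1.57). Neither class passed the test, nor did the 4 smaller classes. The antisense difference depended on how regions were counted and members chosen, and did not pass the test in the settings that follow. With 1 region per locus, 19 lost and 37 gained members lay near -AS genes (odds ratio 0.458, exact adjusted p = 0.0526), and with the 5′ ends of all transcripts 22 and 35 did (odds ratio 0.528, adjusted p = 0.0917). Without the members near the start of a protein-coding transcript, described below, the counts were 14 and 27 (odds ratio 0.414, exact adjusted p = 0.0634). When antisense genes were taken by their overlap with a protein-coding gene on the other strand instead of by name, 92 lost and 114 gained members lay near one (odds ratio 0.723, 95% interval 0.522 to 1.00, exact adjusted p = 0.169).

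The 61 -AS genes comprised 20 with lost and 41 with gained regions. Those named here were chosen, after the values were seen, for the protein-coding gene on the other strand. Lost regions lay near LOXL1-AS1 and LOXL2-AS1, opposite genes of lysyl oxidase-like enzymes that crosslink collagen and elastin. They also lay near THY1-AS1, opposite the gene of the fibroblast surface protein THY1 (CD90), near ITGB5-AS1, opposite an integrin subunit gene, and near WWTR1-AS1, opposite the gene that encodes TAZ. Gained regions lay near CD44-AS1, opposite the gene of a hyaluronan receptor, near SLC7A11-AS1, whose partner encodes the cystine transporter, near INHBA-AS1, whose partner encodes a subunit of activin A, and near HIF1A-AS3, opposite the gene of a hypoxia-inducible factor. The region of THY1-AS1 was chr11:119416744-119418912 and covered the 5′ end of the lncRNA gene in the body of THY1.

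The protein-coding partner of an -AS gene mostly had no listed region at its own promoter, and where it had one, the direction was mostly the same. Among all 1520 listed regions at protein-coding promoters, 1122 were gained and 398 lost, so that a gained partner promoter was the more frequent kind in any case. Of the 20 -AS genes with lost regions, 4 had a partner with a lost promoter region (FOXO6, L1CAM, LOXL1 and THY1) and 16 had a partner with none. Of the 41 with gained regions, 8 had a partner with a gained promoter region, among them CD44, HIF1A, SLC7A11 and NR2F2, and 31 had a partner with none. The exceptions were CIRBP, a cold-inducible RNA-binding protein gene, and MYLK, the myosin light chain kinase gene, where the antisense gene had gained and the promoter of the partner had lost H3K27ac. The region of MYLK-AS2, chr3:123689181-123690787, lay 104128 bp from the nearest protein-coding 5′ end and within 2500 bp of the start of another MYLK transcript. Partners were taken from the name of the -AS gene. The 5′ end of SRGAP2-AS1 lay 84804540 bp from that of SRGAP2, and PSG8-AS1 and TMEM92-AS1 overlapped no protein-coding gene. Many of the other -AS genes share loci with their partners, and no test was made of the counts.

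Among lncRNA genes with a symbol, those with the most lost regions mostly had LINC names and those with the most gained regions mostly -AS names. The 10 with the most lost regions included 6 LINC genes and 2 -AS genes, and the 10 with the most gained regions included 6 -AS genes and 2 LINC genes. By position, LINC01389 overlapped the protein-coding gene CMPK1 on the other strand. LINC02104 led the lost genes with 4 regions within chr5:39516007-39523216, of which 1 covered its 5′ end. LINC01389 had 3 lost regions, and LINC01819, LINC02989, LINC01638, LINC02192, WWTR1-AS1, HS1BP3-IT1, RARA-AS1 and CT70 had 2 each. RARA-AS1 lies opposite the gene of a retinoic acid receptor, and both of its lost regions lay within 2500 bp of the start of a RARA transcript. Among the gained genes, LURAP1L-AS1, MIR222HG, ARHGEF2-AS2, NAV2-AS6, DLGAP1-AS2 and LINC00973 had 3 regions each, and CLMAT3, LINC02923, ZFPM2-AS1 and CDC42EP3-AS1 had 2. The regions of LURAP1L-AS1 and of MIR222HG, the host gene of miR-221 and miR-222, covered all 5001 bp of the window around the 5′ end. CLMAT3 lies opposite SPARC, a matricellular protein gene, and both of its gained regions were centred in the body of SPARC.

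Most loci of members, 231 lost and 231 gained, held a single member region, although listed regions of other classes could lie close by. A further 50 lost and 32 gained loci had 2 member regions, and 6 lost and 13 gained loci had 3 or more, for which no test was made. The largest was a gained locus of 8 regions at chr15:96329022-96347021 with NR2F2-AS1 and MIR1469, next to the nuclear receptor gene NR2F2. It was followed by 6 gained regions at DLGAP1-AS1 and DLGAP1-AS2 and by 5 each at MIR222HG and at ARHGEF2-AS1 and ARHGEF2-AS2. The largest lost loci had 4 regions, at HS1BP3-IT1, at LINC02104 and at an lncRNA gene without a symbol on chromosome 12 (ENSG00000257429) in the body of PTPRQ.

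A list of 72 regulatory lncRNA genes studied in fibrosis, stress or imprinting, 69 of them in the annotation, had 8 genes near members, 7 with gained and 1 with lost regions. The gained genes were NEAT1, NR2F2-AS1, PVT1, MIR222HG, HIF1A-AS3, NORAD and JPX, and the lost gene was SNHG12. In all members near lncRNA genes, 249 of 488 were gained. NEAT1, whose RNA builds nuclear paraspeckles, had 2 abutting gained regions at chr11:65419614-65423613, of which the second covered its 5′ end and was CpG-rich. NORAD, whose RNA sequesters Pumilio proteins, had a gained region at chr20:36050306-36051403 that covered its 5′ end. PVT1 lies on chromosome 8 downstream of MYC, and its gained region lay 58473 bp from the MYC 5′ end. SNHG12, a host of small nucleolar RNAs, had a lost region at chr1:28580813-28582976 that ended 156 bp from its annotated 5′ end. The genes of the list were named with earlier results of these data known, and the other 61 genes of the list in the annotation had no member within 2500 bp.

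For microRNA genes, lost regions included a well-known cluster. A single lost region, chr19:13835666-13837577, covered the hairpins of MIR23A, MIR27A and MIR24-2, whose mature strands are shown above. Another locus of lost regions on chromosome 9 held MIR181A2 and MIR181B2, the latter with 2 lost regions, in the body of NR6A1. MIR193A had a lost region 907 bp from the start of its hairpin, at chr17:31560903-31562718. On the gained side were MIR125B1, whose hairpin began 600 bp from a region at chr11:122100444-122103205, and MIR199A1, whose hairpin lay inside chr19:10817151-10818484 in the body of DNM2. These 8 genes, 6 lost and 2 gained, were the ones with members among 88 microRNA genes listed for fibrosis and stellate cells. Of all 1879 annotated microRNA genes, 42 had members, 21 lost and 21 gained. The 6 lost genes belong to 3 loci, so that they do not count as 6 separate observations.

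The other microRNA genes near members were mostly less studied. Lost regions lay near MIR1288, MIR378G, MIR3935, MIR4685, MIR4736, MIR4740, MIR6070, MIR6079, MIR6131, MIR6746, MIR7845 and MIR7847. Gained regions lay near MIR137, MIR1469, MIR2116, MIR2682, MIR3129, MIR3174, MIR3611, MIR3619, MIR4280, MIR4296, MIR4711, MIR5587, MIR5689, MIR583, MIR6090, MIR6782 and MIR6835. A mature sequence was found in the RefSeq table for 37 of the 42 microRNA genes, and only these 37 are named here. Their 57 mature strands outside chromosome 8 had 55 different seeds, and no seed occurred next to both lost and gained regions. Only 2 seeds were shared by more than 1 gene, and a seed of a single gene can have only a single direction here. The lack of overlap was thus largely fixed in advance. MIR137, whose microRNA is abundant in neurons, and MIR2682 shared 1 gained region, chr1:98044062-98046832, with a GC content of 55.0% and a CpG observed/expected ratio of 0.647. MIR1469 had 4 gained regions in the NR2F2 locus. MIR3129, which has its seed in common with miR-199a-3p, lay 719 bp from a gained region in the body of the collagen gene COL5A2.

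Pseudogenes with members were mostly processed copies of messenger RNAs, near 55 lost and 42 gained regions. By number of regions, with ties broken by the bases covered, the pseudogenes with a symbol that led the lost were SSR1P2, NDUFB10P1 and PSMC1P4, with 2 lost regions each. IFITM9P led the gained with 2 regions, followed by RNA5SP241 and RNF7P1 with 1 each. Of the regions near pseudogenes, 31 of 55 gained and 16 of 68 lost were centred in the body of a protein-coding gene, next to 163 of 347 gained and 141 of 352 lost among all members. No test was made for pseudogenes, and over all members the odds ratio was 0.754 (exact p = 0.0675), or 1.09 without the members near a protein-coding transcript start. Among the other small RNA genes, small nuclear RNA genes were near 16 lost and 10 gained regions and small nucleolar RNA genes near 2 and 5.

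Coverage of the 5′ end itself did not differ past the test. A non-coding 5′ end was covered by 154 gained members (44.4%) and 132 lost members (37.5%), with an odds ratio of 0.752 (95% interval 0.556 to 1.02, p = 0.0655 in Fisher's exact test). With a window of 1000 bp the odds ratio was 0.63 (exact p = 0.0201), and with protein-coding 5′ ends kept out to 5000 bp it was 0.721 (p = 0.0464), and both of these passed. With 1 region per locus it was 0.784 (exact p = 0.172), without members near a protein-coding transcript start 0.815 (p = 0.238) and with the 5′ ends of all transcripts 0.918 (p = 0.636), so that the difference depended on the setting. For lncRNA genes, the 5′ end was covered by a listed region in 59.9% of the 232 genes with gained regions and in 41.6% of the 226 genes with lost regions. At 1000 bp upstream the percentages were 33.6% and 35.0%. At 1000 bp downstream they were 32.3% for both. The members that did not cover the nearest 5′ end lay upstream of it in 124 lost and 101 gained cases and downstream in 96 and 92.

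**Figure D3:**
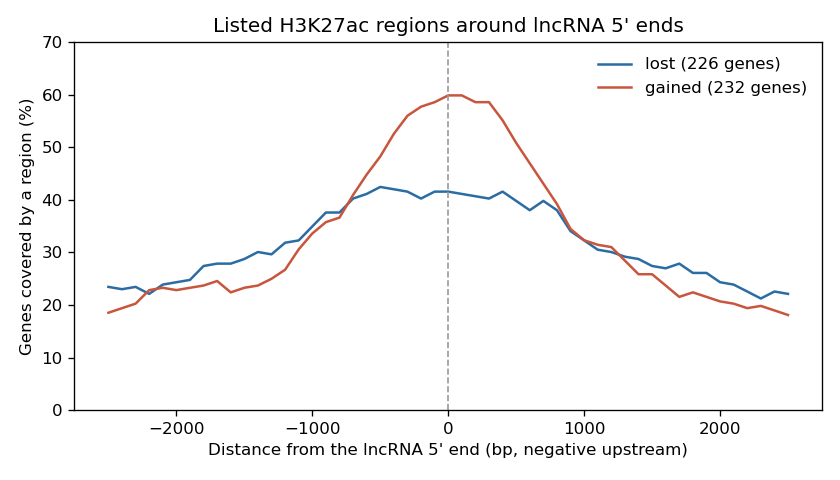
Percentage of lncRNA genes covered by a member (y axis) at each distance from the 5′ end (x axis, in bp, negative upstream), for 226 genes with lost (blue) and 232 genes with gained (red) regions. The gained line peaks at the 5′ end, where it is at 59.9%, whereas the lost line is at 41.6% there, and the lines come together at 1000 bp on either side.

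Covering the 5′ end was the only one of 4 features for which the contrast between lost and gained regions differed from that at protein-coding promoters. There, 77.1% of 1122 gained and 57.5% of 398 lost regions covered the 5′ end of a gene, protein-coding or non-coding. The ratio of the odds ratio in members to that at protein-coding promoters was 1.87 (adjusted p = 0.00635 in a Wald test over 4 features, n = 699 members and n = 1520 other regions). It was 1.56 with a window of 1000 bp (adjusted p = 0.212, n = 456 members). Over the n = 699 members the ratio for CpG-island-like composition was 1.21 (adjusted p = 0.628), for the TEAD motif 0.758 (adjusted p = 0.363) and for the ATF4-C/EBP motif 1.02 (adjusted p = 0.956). A difference between non-coding and protein-coding promoters was thus not detected for these 3 features.

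A part of the members lay at starts of protein-coding transcripts other than the gene's annotated 5′ end, and these were mostly gained. The rule used to choose members considers a single 5′ end per gene, so that a region at an internal promoter of a protein-coding gene can be a member. Such a start lay within 2500 bp of 76 gained members (21.9%) and 32 lost members (9.09%), an odds ratio of 0.357 (95% interval 0.229 to 0.556, p = 3.2e-06 in Fisher's exact test). The gained members lay near transcripts of 62 protein-coding genes and the lost members near transcripts of 29. No gene had both, but most of these genes had a single member, which allows only a single direction. Among the gained were ARHGEF2 with 5 regions, NR2F2 with 4 and NAV2 with 3, all 3 genes with antisense partners. WWTR1 and RARA, each with 2 lost regions, were in the same position among the lost. Of the -AS regions described above, 8 of the 22 lost and 27 of the 54 gained were of this kind. Whether H3K27ac at these members belongs to the non-coding or to the protein-coding transcript was not tested.

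Gained members were also more often CpG-rich. A region with a GC content of at least 50% and a CpG observed/expected ratio of at least 0.6 was called CpG-island-like, which held for 75 gained (21.6%) and 28 lost (7.95%) members, an odds ratio of 0.313 (95% interval 0.197 to 0.498, p = 3.58e-07 in Fisher's exact test). Of the 75 gained, 41 lay near a protein-coding transcript start, as did 12 of the 28 lost. Among members away from such starts, 34 of 271 gained and 16 of 320 lost were CpG-island-like (odds ratio 0.367, exact p = 0.0016). The median CpG ratio was 0.246 in gained and 0.218 in lost members, and the upper quartiles were 0.545 and 0.288. The difference thus lay in the upper part of the distribution. GC content itself had the opposite order, with a median of 46.7% in gained and 48.8% in lost members. Both medians were lower than at protein-coding promoters, where they were 0.736 for gained and 0.525 for lost regions, and nearer to those of TSS-distal regions, at 0.188 and 0.189. Widths were similar, with medians of 1815 bp for gained and 1844 bp for lost members.

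**Figure D4:**
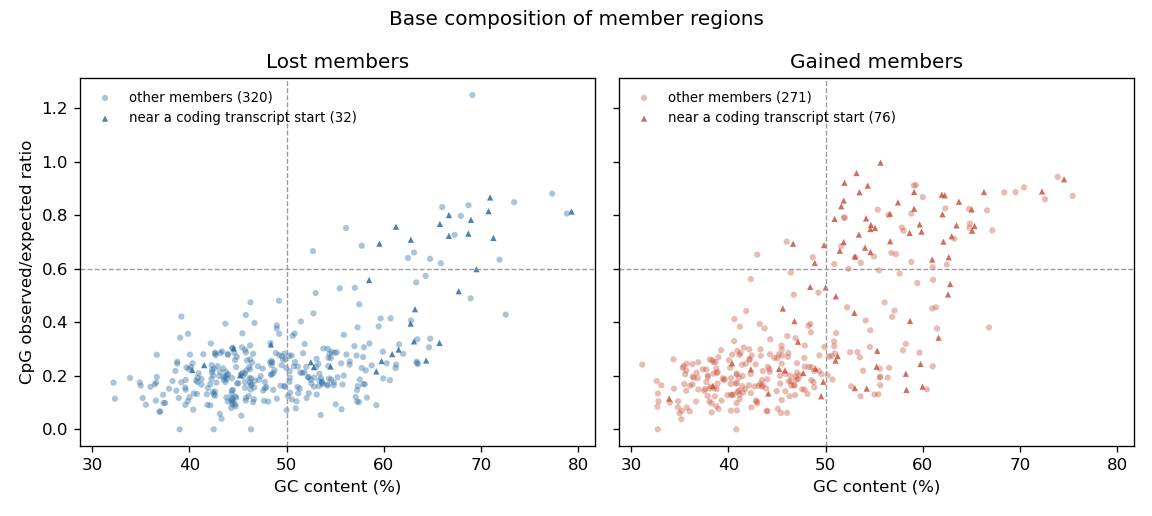
GC content in % (x axis) and CpG observed/expected ratio (y axis) of each lost (left) and gained (right) member, with triangles for members within 2500 bp of a protein-coding transcript start, circles for the others and dashed lines at the limits for CpG-island-like composition. The upper right field holds 28 lost and 75 gained members, of which 12 and 41 are triangles.

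Motifs in the sequence of the members differed between the directions for 4 of 11 consensus sequences searched on both strands. A TEAD match was found in 147 lost members (41.8%) and 110 gained members (31.7%), an odds ratio of 1.54 (95% interval 1.13 to 2.11, adjusted p = 0.0168 in Fisher's exact test). In all listed regions the share was 35.1%. In TSS-distal regions the difference had the same direction, with a match in 44.87% of lost and 31.85% of gained regions. At protein-coding promoters the shares were 30.65% and 17.83%. The TEAD difference was larger with 1 region per locus (127 and 83, odds ratio 1.85, exact adjusted p = 0.00511). It did not pass the test without the members near a protein-coding transcript start (136 and 95, odds ratio 1.37, exact adjusted p = 0.208). Matches were found in lost regions of WWTR1-AS1, THY1-AS1, MYADM-AS1, LINC02104 and MIR181B2, as shown above. The consensus of SRF, the serum response factor that controls contractile genes, occurred in 42 lost and 27 gained members (odds ratio 1.61, exact adjusted p = 0.139). A region of MYADM-AS1 held 2 TEAD matches and 1 SRF match.

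The other 3 motifs that passed the test were found in a larger share of gained members. The ATF4-C/EBP element TGATGCAA, through which ATF4 activates amino acid and stress response genes, was present in 38 gained (10.95%) and 17 lost (4.83%) members, next to 7.29% of all listed regions (odds ratio 0.413, 95% interval 0.228 to 0.746, exact adjusted p = 0.0164). The ETS consensus CCGGAAGT was present in 16 gained and 2 lost members, next to 4.07% of all listed regions (odds ratio 0.118, 95% interval 0.027 to 0.518, exact adjusted p = 0.00643). The motif of NRF1, a factor of nuclear genes for mitochondria, occurred in 25 gained and 9 lost members, next to 6.23% of all listed regions (odds ratio 0.338, 95% interval 0.155 to 0.735, exact adjusted p = 0.0168). In TSS-distal regions, ATF4-C/EBP was found in 11.84% of gained and 4.53% of lost regions. ETS was found there in 1.625% of gained and 1.451% of lost regions, and NRF1 in 0.929% and 0.508%. At protein-coding promoters, ETS was found in 17.11% of gained and 1.256% of lost regions, and NRF1 in 28.34% and 14.57%. The ATF4-C/EBP shares at those promoters were 6.595% and 2.764%, so that all 3 motifs had the same direction there as in members. Among members away from protein-coding transcript starts, the ETS difference passed the test (11 and 1, exact adjusted p = 0.0194). Those of ATF4-C/EBP (30 and 17, exact adjusted p = 0.0766) and NRF1 (10 and 7, exact adjusted p = 0.475) did not. NRF1 also did not pass with 1 region per locus (exact adjusted p = 0.156). ETS and NRF1 motifs contain CpG, and gained members were richer in CpG, as described above. The part of base composition in these differences was not tested.

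The other motifs searched gave no difference past the test. AP-1, matched as TGACTCA or TGAGTCA, was found in 158 lost and 163 gained members (44.9% and 47.0%, odds ratio 0.919, 95% interval 0.683 to 1.24). RUNX, matched as TGTGGT or TGCGGT, was found in 264 and 248, and the degenerate NF-kB consensus in 258 and 232. The cAMP response element TGACGTCA was found in 9 and 7, the SP/KLF consensus GGGCGGGG in 60 and 73, and the E-box CACGTG in 80 and 87.

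**Figure D5:**
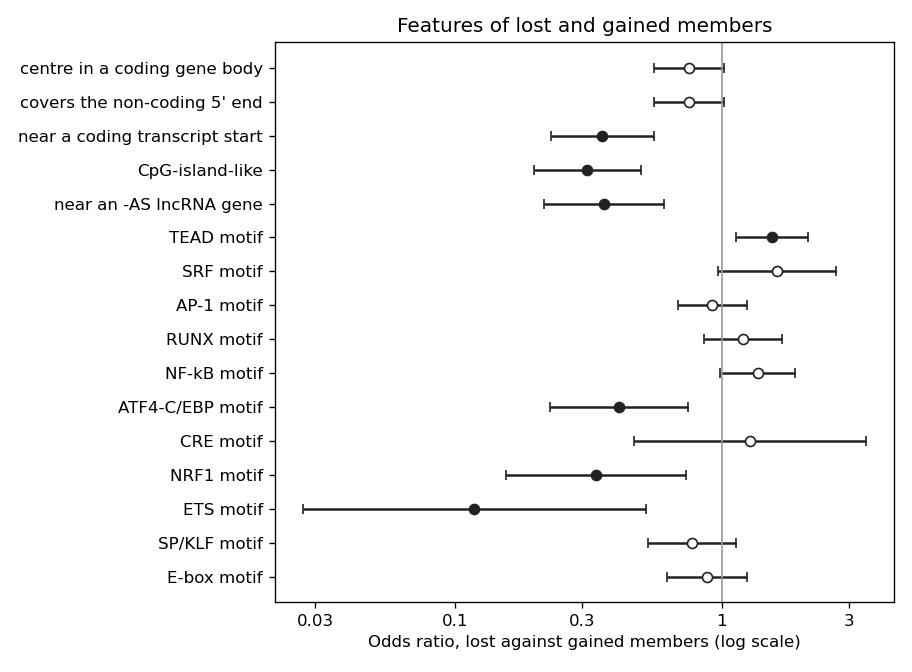
Odds ratio for lost against gained members (x axis, log scale) of 5 positional and composition features and of 11 motifs (y axis), with 95% intervals as bars. Values above 1 are features more frequent in lost members, and filled points passed the test. TEAD is the only filled point above 1, at 1.54, and ETS is the lowest, at 0.118.

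RefSeq promoters of 300 bases outside chromosome 8 that lay wholly inside members numbered 23 for 22 genes with lost regions and 40 for 37 genes with gained regions, since some genes have more than 1 start. They held a median of 10 and 19.5 CpG dinucleotides. The ETS consensus occurred in 4 of the 40 gained and in 0 of the 23 lost promoters, next to 4.14% of all 35116 promoters of the table, but these 4 hold 3 sites, as the promoters of LINC00526 and LINC00667 overlap on opposite strands and hold the same one. The ATF4-C/EBP element occurred in 1 gained promoter, that of LURAP1L-AS1, and in 0.866% of all promoters. The TEAD consensus occurred in 2 gained and 0 lost promoters, next to 4.15% of all, so that the TEAD matches of lost members lay outside these windows. With so few promoters these counts are a description.

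Members mostly had the direction of their neighbours. Within 50 kb of 44 lost members lay a listed region at a protein-coding promoter, and the nearest one was also lost for 32 of them (72.7%). For 65 gained members with such a neighbour, it was gained for 54 (83.1%). Of all listed regions at protein-coding promoters, 398 were lost and 1122 gained. The nearest TSS-distal region within 50 kb had the same direction for 148 of 169 lost and 126 of 147 gained members. Of all TSS-distal regions, 2757 were lost and 2154 gained. The median distance to the nearest protein-coding 5′ end was 51120 bp for lost and 40100 bp for gained members. At the edge of the window, 9 lost and 2 gained members lay in its last 100 bp, and 5 lost and 5 gained regions lay in the next 100 bp outside it. Members were on all autosomes and on chromosome X, and the share of lost members was lowest on chromosome 4, with 4 lost and 11 gained, and highest on chromosome 20, with 15 lost and 4 gained. Among all listed regions, chromosome 4 had 134 lost and 175 gained, and chromosome 20 had 131 lost and 114 gained. These chromosomes were picked as extremes of small counts, and no test was made.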

How the data were processed

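H3K27ac ChIP-seq of LX-2 cells was used, with 4 control and 4 OGTi libraries. The authors used Chromap to align reads to hg38 and MACS2 2.1.1.20160309 for peaks of each library over input, and compared bins of these peaks between the arms with MAnorm2 over all 8 libraries together. The deposited lists hold 3 columns (chromosome, start and end, in no unit other than base pairs), with no count, signal, fold change or p-value, so that the depth is unknown, replicates are pooled and regions are the unit of every test. P-values therefore describe how the 2 lists differ, not how cultures vary. The lists are named for an adjusted p of 0.15, and the methods name a stricter threshold. Unchanged regions were not used here.

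Starts were converted to count from 1. Genes came from GENCODE release 44 (62700 genes, 42654 non-coding), whereas the study used an earlier release. Fisher's exact tests, two-sided, were used for shares with scipy 1.17.1, adjusted by Benjamini-Hochberg within each family, and odds ratios of members and protein-coding promoters with two-sided Wald tests. Intervals of odds ratios are on the log scale (Woolf), and all intervals cover counting error only. Neighbouring regions are not independent. Motifs were matched on both strands of hg38, without regard to overlaps between motifs. NF-kB was matched by a degenerate consensus, SRF by its CArG box, and NRF1 by GCGC, any 2 bases and GCGC. Steps were tested on simulated data.

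The members, gene lists and motifs were chosen with earlier results of these data known, and what those showed for all listed regions is no independent support. Genes were named by a rule: microRNA genes with a mature sequence in RefSeq, genes of the 2 lists, and per direction the 10 lncRNA genes with a symbol and the 3 pseudogenes with most member regions, ties broken by bases covered. Others are said to be chosen after their values were seen or are named for a motif match, a large locus or a protein-coding transcript start. Alternatives were 1 region per locus, a window of 1000 bp, protein-coding 5′ ends kept out within 5000 bp, the 5′ ends of all transcripts and, for motifs, the central 1000 bp. The class of lncRNA genes by overlap and the omission of members near protein-coding transcript starts were chosen after seeing the data.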

Additional observations from a re-analysis of the deposited data

How the results depend on the processing

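Of 194 values recomputed under alternatives, 163 kept their direction and their side of the threshold. With 1 region per locus, the odds ratio against TSS-distal regions was 0.888, that of -AS genes 0.458, that of lncRNA genes overlapping no protein-coding gene 1.03 and the ATF4-C/EBP ratio of odds ratios 0.74. With a window of 1000 bp, it was 1.31 for other small RNA genes, 0.935 for lncRNA genes without a symbol, 0.592 for lncRNA genes antisense by overlap, 0.63 for covering the 5′ end, 1.16 for AP-1 and 0.504 for ATF4-C/EBP (adjusted exact p = 0.139), and the ratio for covering the 5′ end was 1.56. With protein-coding 5′ ends kept out within 5000 bp, antisense by overlap was 0.646 and covering the 5′ end 0.721. With the 5′ ends of all transcripts, remaining gene types were at 0.885, -AS genes at 0.528 (adjusted exact p = 0.0917), small RNA hosts at 0.267, CRE at 0.886, NRF1 at 0.475 (adjusted exact p = 0.234), the ATF4-C/EBP ratio at 0.984, and 2 motifs (TEAD and NF-kB) instead of 1 were more frequent in lost members. Without members near a protein-coding transcript start, an alternative chosen after seeing the data, the odds ratio against TSS-distal regions was 0.922, -AS genes were at 0.414, antisense by overlap at 1.04, centres inside protein-coding genes at 1.09 and TEAD at 1.37, so that 0 motifs were more frequent in lost and 1 instead of 3 in gained members. At an unadjusted p under 0.05 and in the same alternative, Fisher's exact test gave 1 motif, NF-kB, as more frequent in lost members and 2, ATF4-C/EBP and ETS, in gained members. The cause of these changes was not tested. An odds ratio could not be given for lncRNA genes named -IT or -OT, with 4 lost and 0 gained members.

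No paired analysis was possible because the files give positions without replicate values. Hence no replicate was left out, no stricter threshold was tried, and the depth behind a member cannot be weighed.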
